A study of Homo sapiens with 4 samples.

Results

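The genes described here are 10 core members of the transforming growth factor beta (TGF-beta) pathway: the ligand genes TGFB1 and TGFB2, the receptor genes TGFBR1, TGFBR2 and TGFBR3, the signal carriers SMAD2, SMAD3 and SMAD4, and the inhibitors SMAD7 and BAMBI. They were chosen by symbol, and all 10 were found, each on 1 row, among 60766 features. The RNA came from HCT116, a cell line of human colon carcinoma, with 2 libraries labelled ARID1A knockdown (shARID1A, a short hairpin RNA against the chromatin remodeller subunit gene ARID1A) and 2 libraries labelled control (CTR). The aim given was to relate ARID1A to immune functions. All cells were grown in serum-containing medium, and the labels list no added ligand or inhibitor. The labels do not say whether the replicates were separate cultures, how many hairpins or clones were used, or whether the controls carried a hairpin. The p-values below therefore measure the spread between these libraries, which may be technical.

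TGF-beta ligands are secreted in a latent form and, once freed, bind the type II receptor TGFBR2, which recruits and phosphorylates the type I receptor TGFBR1. TGFBR1 then phosphorylates SMAD2 and SMAD3, which join SMAD4 and enter the nucleus to switch genes on or off. In normal colon epithelium the pathway restrains growth. HCT116 is a mismatch repair-deficient line known to carry frameshift mutations in a run of adenines in the TGFBR2 coding sequence, so its TGFBR2 mRNA is not expected to encode a full receptor. The expression values count mRNA fragments and carry no information on that frame.

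The reference sequence of this run is shown because it bears on what a TGFBR2 mRNA level can mean in these cells. It lies in exon 3 of 7 of the principal GENCODE release 29 transcript, in the coding sequence, on GRCh38 chr3:30650349-30650419 (plus strand), with the 10 adenines of the run in capitals (30650380 to 30650389). The sequence of the run in these libraries was not analysed here.
TGFBR2 run: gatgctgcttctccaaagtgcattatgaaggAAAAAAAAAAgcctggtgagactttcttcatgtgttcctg

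The 250 bases before the RefSeq start sites of the receptor pair are shown because TGFBR1 and TGFBR2 were the members with the largest falls (values below). They are credited to RefSeq on GRCh38.p14 and lie at chr9:99104833-99105082 (TGFBR1, plus strand) and chr3:30606351-30606600 (TGFBR2, plus strand). Of the start sites listed, 8 for TGFBR1 and 2 for TGFBR2, the one nearest the start of the principal GENCODE transcript was taken. Capitals mark the GC box GGGCGG on either strand, a binding motif of SP1 family factors.
TGFBR1 promoter: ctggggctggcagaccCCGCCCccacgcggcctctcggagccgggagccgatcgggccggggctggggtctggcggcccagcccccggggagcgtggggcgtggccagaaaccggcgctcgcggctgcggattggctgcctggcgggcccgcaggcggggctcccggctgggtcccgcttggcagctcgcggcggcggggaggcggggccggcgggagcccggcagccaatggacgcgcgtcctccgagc
TGFBR2 promoter: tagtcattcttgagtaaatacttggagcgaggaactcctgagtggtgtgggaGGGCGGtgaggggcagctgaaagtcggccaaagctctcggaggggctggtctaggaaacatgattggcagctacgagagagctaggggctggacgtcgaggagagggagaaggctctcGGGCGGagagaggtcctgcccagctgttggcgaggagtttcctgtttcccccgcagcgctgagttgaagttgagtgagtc

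The TGFBR1 window held 1 GC box and was 81.2% G or C, and the TGFBR2 window held 2 and was 58.4% G or C. A GC box was found in 42.6% of all 35116 RefSeq promoter windows of this length, so its presence in both does not set the pair apart. The windows of the other members held between 0 (TGFB2 and SMAD7) and 6 (TGFB1) GC boxes. The start sites behind the windows of SMAD7 and TGFB2 lie 1087 and 899 bases from the start of the principal GENCODE transcript, while those of the other members lie within 243 bases of it. The palindrome GTCTAGAC, to which SMAD3 and SMAD4 bind, was in 0 of the 10 member windows and in 0.18% of all windows. Its shorter relative CAGAC, searched on both strands, occurred 2 times each in the windows of TGFBR1, TGFB2, SMAD7 and BAMBI. Of all windows, 38.0% held it at least 1 time and 8.84% held it 2 or more times. These matches describe letters only.

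Expression was read as FPKM, fragments scaled by the length of the transcript and by each library's mapped total, so levels of different genes are per length. From the steps between low values, 1 FPKM over 2 kb stood for about 151.5 and 148.0 fragments in the knockdown libraries and 137.5 and 142.0 in the controls. These numbers take the full 2 kb. The estimate of fragment totals subtracted the fragment length from each transcript, so a 2 kb transcript would yield fewer. ARID1A itself was at 7.05 and 6.13 FPKM in the knockdown libraries, against 11.1 and 11.4 FPKM in the controls, so the libraries labelled knockdown kept 0.587 of the control mean. The log2 change was -0.69 (SE 0.077; limma adjusted p = 0.00438), and p was 0.333 by exact permutation (two-sided), which is as small as 2 libraries against 2 allow. Log2 changes are knockdown minus control in log2(FPKM + 1); the added 1 makes changes of low genes look smaller than they are. The limma p-values were adjusted by the Benjamini-Hochberg method over the 13605 genes with a mean of at least 1 FPKM, and genes under 0.05 are said to have risen or fallen. Of these genes 37.1% were called, 18.2% as risen and 18.9% as fallen.

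Of the epithelial markers, KRT8, KRT18, KRT19, EPCAM and CDH1 were all expressed (3 rose, EPCAM fell and CDH1 did not pass), the lowest being CDH1 with a mean of 24.1 FPKM in the knockdown libraries and 25.4 FPKM in the controls, and CEACAM5 was at most at 0.094 FPKM. Summed fibroblast markers were at 6.24 and 6.43 FPKM in the knockdown libraries, against 5.06 and 3.77 FPKM in the controls. Nearly all of that was COL1A1, while COL1A2, DCN and LUM were at most at 0.0136 FPKM. Summed leukocyte markers were at 2.86 and 3.73 FPKM in the knockdown libraries, against 7.55 and 5.88 FPKM in the controls. Most of this was CD68, while CD3E and TYROBP were at 0 and PTPRC at most at 0.00592 FPKM. The 2 platelet markers were at 0, and summed endothelial markers were between 0.163 and 0.209 FPKM. The part of these markers in the results below was not tested. In bulk RNA, fewer cells expressing a gene and less of its RNA per cell cannot be told apart.

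Of the 10 members, 9 passed the filter on low values and 1, TGFB2, did not. Among the 9 tested, 0 rose, 4 fell (TGFBR1, TGFBR2, SMAD4 and TGFB1) and 5 did not pass (TGFBR3, SMAD2, SMAD3, SMAD7 and BAMBI). Fallen members were thus 44.4% of those tested, where 18.9% of all tested genes fell, and with 9 genes this is a description only. The median log2 change of the 9 was -0.19, beside -0.0030 over all tested genes. The knockdown libraries lay wholly below the controls for 6 members and wholly above for 1, where the shares over all tested genes were 36.5% and 35.8%, or 72.3% for groups apart in either direction. Without control replicate 1 or 2, the number of members that fell was 3, since TGFB1 no longer passed, and without knockdown replicate 2 it was 5, since BAMBI also passed.

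The order of levels among the 10 members was the same in both groups by mean FPKM: SMAD2, SMAD4, TGFB1, BAMBI, SMAD3, TGFBR1, TGFBR2, SMAD7, TGFBR3 and TGFB2, from high to low. Neighbours in this order were apart in every case but 1. In the knockdown libraries BAMBI and SMAD3 overlapped, with a lowest BAMBI value of 21.96 FPKM and a highest SMAD3 value of 22.2 FPKM.

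**Figure D1:**
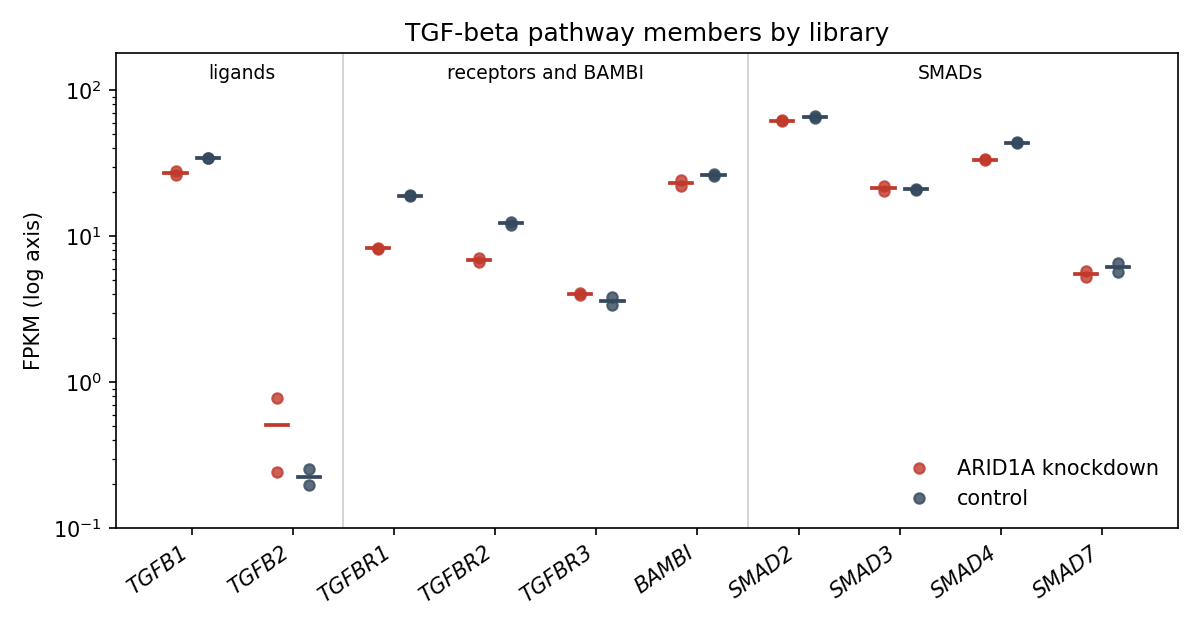
FPKM (log axis) of each of the 10 members in the 2 ARID1A knockdown libraries and the 2 control libraries, with a point per library and a bar at the group mean, grouped by role. TGFBR1 is at 8.31 and 8.19 FPKM in the knockdown libraries and at 18.9 and 19.1 FPKM in the controls, while the points of SMAD3 and SMAD7 overlap between groups.

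Of the ligands, TGFB1 was by far the more abundant. TGFB1, the main TGF-beta isoform of epithelial and immune tissues, on chromosome 19 (GRCh38, 41301587 to 41353922), was at 26.5 and 27.8 FPKM in the knockdown libraries, against 34.3 and 34.4 FPKM in the controls. Both knockdown libraries lay below both controls. TGFB1 fell 1.27-fold, at 27.1 ± 0.921 FPKM in the knockdown libraries and 34.4 ± 0.0632 FPKM in the controls (SD, n = 2 each), with a log2 change of -0.33 (SE 0.043; limma adjusted p = 0.00642). Without control replicate 1 or 2 the log2 change was -0.33 each time, and the adjusted p was 0.0532 and 0.0541. The feature of TGFB1 overlaps those of HNRNPUL1 and CCDC97 on the other strand, and no strand setting is stated, so whether fragments from any shared stretch were counted for the right gene is not known. CCDC97, which lies wholly within the TGFB1 feature, was at 7.01 and 7.38 FPKM in the knockdown libraries, against 8.90 and 9.46 FPKM in the controls, and fell too (log2 change -0.31; limma adjusted p = 0.0192). HNRNPUL1 was at 60.2 and 58.6 FPKM in the knockdown libraries, against 66.4 and 63.95 FPKM in the controls (log2 change -0.13; adjusted p = 0.0583). The part of these neighbours in the TGFB1 value was not tested.

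TGFB2, an isoform with roles in heart and eye development that needs the co-receptor TGFBR3 for high-affinity binding, lies on chromosome 1 (218345336 to 218444619). It was at 0.241 and 0.774 FPKM in the knockdown libraries, against 0.253 and 0.198 FPKM in the controls. Only knockdown replicate 2 was high, and the groups overlapped. With no filter on low values its log2 change was 0.28 (SE 0.202; limma adjusted p = 0.522). TGFB1 exceeded TGFB2 by 109.8 and 35.9 times in FPKM in the knockdown libraries, and by 135.5 and 173.5 times in the controls. The remaining isoform gene, TGFB3, was also below the filter, at 0.576 and 0.430 FPKM in the knockdown libraries, against 0.809 and 0.805 FPKM in the controls.

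Among the receptors, the signalling pair fell and the co-receptor did not pass the test. TGFBR1, the type I receptor kinase that phosphorylates SMAD2 and SMAD3, on chromosome 9 (99104038 to 99154192), was at 8.31 and 8.19 FPKM in the knockdown libraries, against 18.9 and 19.1 FPKM in the controls. The replicates of each group were close together and the groups lay far apart. TGFBR1 fell 2.30-fold, at 8.25 ± 0.0819 FPKM in the knockdown libraries and 19.0 ± 0.0880 FPKM in the controls (SD, n = 2 each), with a log2 change of -1.11 (SE 0.046; limma adjusted p = 4.42e-04), and 129 of the 13605 tested genes had a lower log2 change. Its adjusted p stayed between 0.00669 and 0.0158 when any 1 library was left out.

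TGFBR2, the ligand-binding type II receptor kinase with the adenine run shown above, on chromosome 3 (30606601 to 30694142), was at 6.66 and 7.07 FPKM in the knockdown libraries, against 12.0 and 12.5 FPKM in the controls. Both knockdown libraries were below both controls. TGFBR2 averaged 6.86 ± 0.291 FPKM in the knockdown libraries and 12.3 ± 0.385 FPKM in the controls (SD, n = 2 each). TGFBR2 fell 1.79-fold (log2 change -0.75, SE 0.059; limma adjusted p = 0.00184, and between 0.0142 and 0.0275 when any 1 library was left out). Of all tested genes, 367 had a lower log2 change than TGFBR2. By another measure, 3.07% (417 genes) were called as fallen with the same ratio of means or a lower one. Summed over the pair, TGFBR1 and TGFBR2 came to 14.96 and 15.3 FPKM in the knockdown libraries, against 30.9 and 31.6 FPKM in the controls. The FPKM ratio of TGFBR1 to TGFBR2 was 1.25 and 1.16 in the knockdown libraries and 1.58 and 1.52 in the controls. Its 2 group ranges did not overlap, and 2 libraries against 2 allow no smaller exact permutation p than 0.333 for such a single value.

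TGFBR3, or betaglycan, a co-receptor that presents ligand and has no kinase, on chromosome 1 (91680343 to 91906335), was at 3.99 and 4.10 FPKM in the knockdown libraries, against 3.39 and 3.86 FPKM in the controls. It was the member whose knockdown libraries both lay above both controls, and the difference did not pass (log2 change 0.13, 95% interval -0.091 to 0.35; limma adjusted p = 0.287). The FPKM ratio of TGFBR3 to TGFBR2 was 0.599 and 0.580 in the knockdown libraries, against 0.283 and 0.308 in the controls.

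BAMBI, a pseudoreceptor that resembles the type I receptors but lacks the kinase domain and so blocks signalling, on chromosome 10 (28677510 to 28682932), was at 21.96 and 24.2 FPKM in the knockdown libraries, against 26.0 and 26.8 FPKM in the controls. The groups did not overlap, but knockdown replicate 2 was near the controls. Its log2 change of -0.19 (95% interval -0.34 to -0.029, unadjusted) had a limma adjusted p of 0.0687, and without knockdown replicate 2 it was -0.26 with an adjusted p of 0.0490. Without knockdown replicate 1 the log2 change of BAMBI was -0.12 (adjusted p = 0.183), and without control replicate 1 or 2 its adjusted p was 0.174 and 0.240. BAMBI was thus more abundant per length than TGFBR1 and TGFBR2 in every library.

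**Figure D2:**
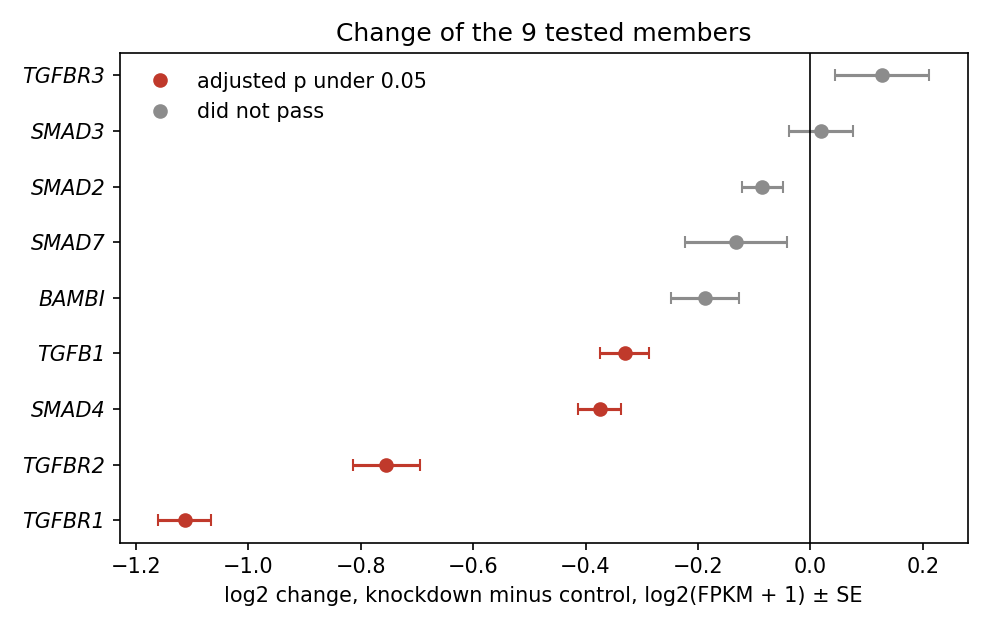
Log2 change (knockdown minus control, on log2(FPKM + 1), ± SE from limma) of the 9 tested members, 2 libraries in each group, in red where the adjusted p was under 0.05. The 4 red points, from -1.11 for TGFBR1 to -0.33 for TGFB1, lie left of the grey ones, which run from -0.19 for BAMBI to 0.13 for TGFBR3.

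Of the SMADs, SMAD4 fell and the receptor-activated pair did not pass. SMAD4, the common partner that carries activated SMADs in both the TGF-beta and the bone morphogenetic protein (BMP) branch, on chromosome 18 (51028394 to 51085045), was at 33.8 and 33.1 FPKM in the knockdown libraries, against 43.5 and 43.9 FPKM in the controls. Each group was tight and the groups did not overlap. SMAD4 averaged 33.5 ± 0.515 FPKM in the knockdown libraries and 43.7 ± 0.277 FPKM in the controls (SD, n = 2 each). SMAD4 fell 1.31-fold (log2 change -0.38, SE 0.038; limma adjusted p = 0.00337, and between 0.0178 and 0.0396 when any 1 library was left out). The protein-coding feature AC091551.1 overlaps 29751 bases of the SMAD4 feature on the same strand, so how fragments were split between them is uncertain. AC091551.1 was listed at 0.142 and 0.180 FPKM in the knockdown libraries, against 0.460 and 0.457 FPKM in the controls.

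SMAD2, which is phosphorylated by TGFBR1 and does not bind DNA strongly by itself, on chromosome 18 (47808957 to 47931146), was the most abundant member per length. It was at 61.2 and 62.2 FPKM in the knockdown libraries, against 66.4 and 64.7 FPKM in the controls. Both knockdown libraries lay slightly below the controls, and the difference did not pass (log2 change -0.085, 95% interval -0.18 to 0.0095; limma adjusted p = 0.131). The interval did not reach a fall as large as that seen for SMAD4 or the receptor pair. It is unadjusted and rests on the spread between 2 libraries per group, which may be technical.

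SMAD3, which binds DNA directly and drives many early target genes, on chromosome 15 (67063763 to 67195169), was at 20.3 and 22.2 FPKM in the knockdown libraries, against 20.8 and 21.1 FPKM in the controls. The knockdown values lay on either side of the controls (log2 change 0.019, 95% interval -0.13 to 0.17; limma adjusted p = 0.814). Without knockdown replicate 2 the log2 change was -0.040. SMAD2 exceeded SMAD3 by 3.01 and 2.80 times in FPKM in the knockdown libraries, and by 3.19 and 3.06 times in the controls. The FPKM ratio of SMAD4 to SMAD2 was 0.553 and 0.533 in the knockdown libraries, against 0.655 and 0.679 in the controls.

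SMAD7, an inhibitory SMAD that TGF-beta itself induces and that brings SMURF ubiquitin ligases to the receptors, on chromosome 18 (48919853 to 48952052), was at 5.80 and 5.24 FPKM in the knockdown libraries, against 6.57 and 5.73 FPKM in the controls. The groups overlapped, and the difference did not pass (log2 change -0.13, 95% interval -0.37 to 0.10; limma adjusted p = 0.300). SMAD6, the other inhibitory SMAD, which acts mainly in the BMP branch, was at 5.69 and 7.31 FPKM in the knockdown libraries, against 5.12 and 4.95 FPKM in the controls (log2 change 0.31; adjusted p = 0.104). Without knockdown replicate 1 the log2 change of SMAD6 was 0.46 (adjusted p = 0.0361), and without knockdown replicate 2 it was 0.15 (adjusted p = 0.283).

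Genes outside the members were described in 4 lists, with counts set beside the 18.2% of all tested genes that rose and the 18.9% that fell. Of 13 genes of ligand release and activation, 7 were tested, of which 0 rose and 3 fell, with a median log2 change of -0.20. The number that rose was 2 without knockdown replicate 1, and 1 with a filter of at least 5 FPKM or with the replicate number as a block. ITGAV, an integrin subunit that helps free latent TGF-beta, was at 10.2 and 10.9 FPKM in the knockdown libraries, against 16.3 and 15.9 FPKM in the controls (log2 change -0.57; limma adjusted p = 0.00313). The membrane protease gene MMP14 was at 14.8 and 12.9 FPKM in the knockdown libraries, against 21.7 and 21.7 FPKM in the controls (log2 change -0.61; adjusted p = 0.00506). LTBP1, which tethers latent TGF-beta to the matrix, was at 1.41 and 1.08 FPKM in the knockdown libraries, against 2.59 and 1.93 FPKM in the controls (log2 change -0.53; adjusted p = 0.0470). Its call was lost without any 1 of the 4 libraries, with adjusted p-values from 0.0688 to 0.164, and with no filter on low values (0.157).

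Of 18 genes of co-receptors, antagonists and the activin and BMP branches, 11 were tested, of which 0 rose and 2 fell, with a median log2 change of -0.013. The type I receptor gene ACVR1 was at 6.95 and 6.53 FPKM in the knockdown libraries, against 9.86 and 9.86 FPKM in the controls (log2 change -0.49; limma adjusted p = 0.00505). SMAD5, a BMP-activated SMAD, was at 17.9 and 19.2 FPKM in the knockdown libraries, against 24.1 and 22.3 FPKM in the controls (log2 change -0.31; adjusted p = 0.0205). The SMAD5 call was lost without control replicate 1 (adjusted p = 0.103), control replicate 2 (0.0615) or knockdown replicate 1 (0.0755), and with no filter on low values (0.0774), and the count of falls was then 1. Without knockdown replicate 1, 1 gene of this list rose.

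Of 25 intracellular regulators of SMAD signalling, 23 were tested, of which 1 rose and 4 fell, with a median log2 change of 0.028. SMURF2, a ubiquitin ligase that acts on the receptors together with SMAD7, was at 47.2 and 44.8 FPKM in the knockdown libraries, against 77.1 and 79.9 FPKM in the controls (log2 change -0.76; limma adjusted p = 0.00101). The deubiquitinase gene USP15, which counters such ligases at the receptor, was at 34.9 and 37.9 FPKM in the knockdown libraries, against 23.4 and 24.9 FPKM in the controls (log2 change 0.57; adjusted p = 0.00364). SKIL, a corepressor of SMAD targets that is itself induced by TGF-beta, was at 5.56 and 4.79 FPKM in the knockdown libraries, against 9.02 and 8.86 FPKM in the controls (log2 change -0.69; adjusted p = 0.00486). Its relative SKI was at 44.6 and 57.3 FPKM in the knockdown libraries, against 43.8 and 38.7 FPKM in the controls, and did not pass (log2 change 0.29; adjusted p = 0.150). Without knockdown replicate 1 the log2 change of SKI was 0.47 (adjusted p = 0.0395), and without knockdown replicate 2 it was 0.11 (adjusted p = 0.406).

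PMEPA1, a feedback inhibitor induced by TGF-beta, was at 1.09 and 0.627 FPKM in the knockdown libraries, against 2.44 and 2.73 FPKM in the controls (log2 change -0.96; limma adjusted p = 0.0115). Its call was lost without control replicate 1 (adjusted p = 0.0606) or 2 (0.0735), and with no filter on low values (0.0645). The receptor-binding adaptor gene STRAP was at 106 and 102 FPKM in the knockdown libraries, against 120.3 and 118 FPKM in the controls (log2 change -0.19; adjusted p = 0.0207), and its call was lost without control replicate 1 (0.118), control replicate 2 (0.0920) or knockdown replicate 2 (0.0628), with no filter on low values (0.0591) and with a variance prior without a trend (0.0529). Without control replicate 1 or 2, and with no filter, the number of these regulators that fell was 2, and without knockdown replicate 1 the number that rose was 2.

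**Figure D3:**
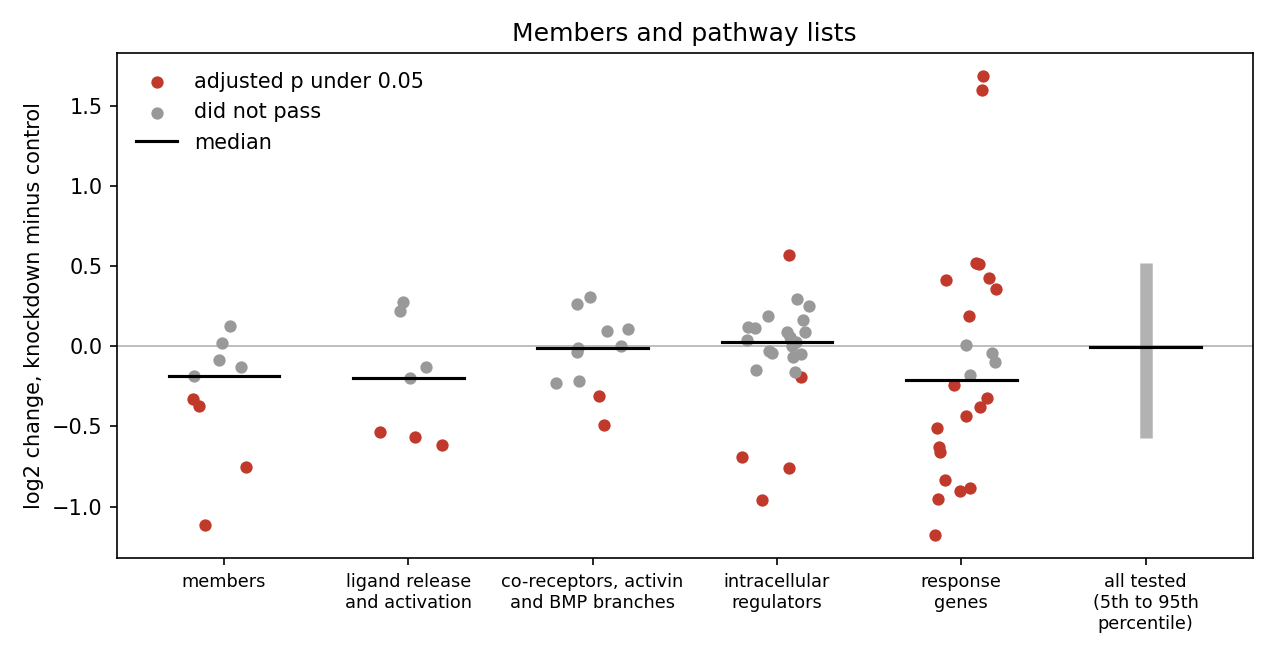
Log2 change (knockdown minus control, 2 libraries each) of every tested gene among the members and the 4 pathway lists, in red where the limma adjusted p was under 0.05, with a bar at each median; the last column gives the median and the span from the 5th to the 95th percentile over all 13605 tested genes (-0.57 to 0.52). The medians run from -0.21 for the response genes to 0.028 for the intracellular regulators.

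Of 28 genes that TGF-beta is known to induce or repress in various cells, 24 were tested, of which 8 rose and 12 fell, with a median log2 change of -0.21. With a filter of at least 5 FPKM, 8 rose and 8 fell. With no filter on low values 6 rose and 9 fell, and with the replicate number as a block 8 rose and 9 fell. With any 1 library left out fewer fell, and fewer rose except without knockdown replicate 1. CCN2, a matricellular protein gene that both TGF-beta and YAP/TEAD factors induce, was at 0.691 and 0.676 FPKM in the knockdown libraries, against 2.89 and 2.74 FPKM in the controls (log2 change -1.18; limma adjusted p = 0.00216). The crosslinking enzyme gene TGM2 was at 4.35 and 4.67 FPKM in the knockdown libraries, against 9.42 and 9.89 FPKM in the controls (log2 change -0.95; adjusted p = 0.00138). Among the others that fell, chosen after their values were seen, were SERPINE2 (1.85-fold lower), BHLHE40 (1.81-fold), IGFBP3 (1.73-fold) and RHOB (1.59-fold).

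The ID genes, which encode inhibitors of basic helix-loop-helix factors, are induced by BMP and repressed by TGF-beta in epithelial cells, and they rose. As said above, the TGFBR2 mRNA of HCT116 is not expected to encode a full receptor. The part of TGF-beta in the changes of the response genes was not tested. ID3 was at 834 and 905 FPKM in the knockdown libraries, against 274 and 265 FPKM in the controls (log2 change 1.68, SE 0.052; limma adjusted p = 3.20e-04). ID2 was at 505 and 544 FPKM in the knockdown libraries, against 171 and 175 FPKM in the controls (log2 change 1.59; adjusted p = 3.20e-04). ID1, named after its values were seen, was at 874 and 931 FPKM in the knockdown libraries, against 718 and 690.0 FPKM in the controls (adjusted p = 0.00640). MYC, which TGF-beta also represses in epithelial cells and which was named after its values were seen, was at 318 and 333 FPKM in the knockdown libraries, against 288 and 282 FPKM in the controls (adjusted p = 0.0205).

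With MYC and the 3 ID genes set aside, a split made after the values were seen, 4 of 20 tested response genes rose and 12 fell. Of all tested genes, 18.2% rose and 18.9% fell. MYC and the 3 ID genes had all risen, so setting them aside by itself lowered the share of rises. In the full list 8 of 24 rose and 12 fell, and both shares were above those of all tested genes. The split therefore cannot show whether falls outweighed rises, and no conclusion is drawn from it. The 4 that rose in the split were JUNB (log2 change 0.52), ANGPTL4 (0.51), CDKN1A (0.42) and CDKN2B (0.41). All 4 moved opposite to CCN2 and TGM2. CDKN1A and CDKN2B encode cyclin-dependent kinase inhibitors that TGF-beta induces in epithelial cells. CDKN1A was at 197 and 198 FPKM in the knockdown libraries, against 147 and 147 FPKM in the controls (limma adjusted p = 0.00163), and CDKN2B was at 5.93 and 6.50 FPKM in the knockdown libraries, against 4.43 and 4.39 FPKM in the controls (adjusted p = 0.0133). These genes answer to other pathways too, and pathway activity itself (SMAD phosphorylation or binding) was not measured in these data.

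**Figure D4:**
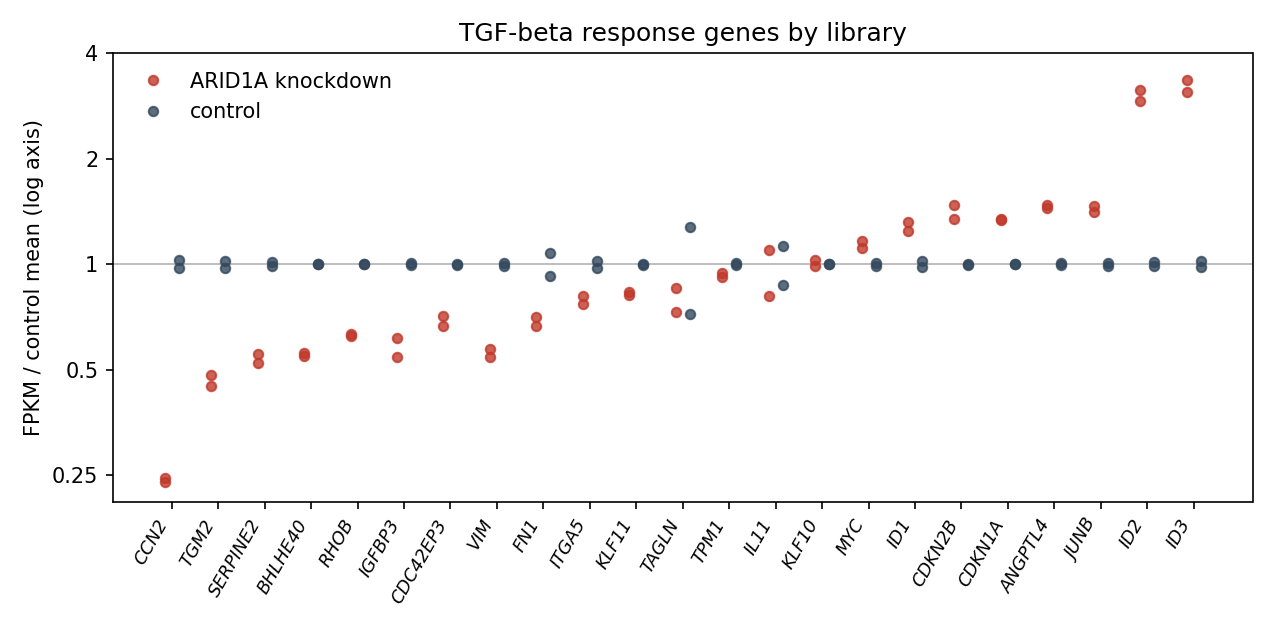
FPKM of the tested TGF-beta response genes, all but 1 of the 24, in each library divided by the control mean of that gene (log axis), ordered by log2 change, with the 2 ARID1A knockdown libraries in red and the 2 control libraries in dark blue. The knockdown points of CCN2 and of ID3 lie farthest from the controls, at the low and the high end, with group means 4.12-fold lower and 3.22-fold higher in the knockdown.

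The tested genes whose 4 values were most like those of TGFBR1, the member with the largest change, were F3, EPCAM, CERK, PADI3 and LINC00511. Likeness was the Euclidean distance of the log2(FPKM + 1) values after centring on each gene's mean over the 4 libraries, and it was 0.0170 for F3 and 0.0438 for LINC00511. F3, which encodes tissue factor, the starter of blood clotting, was at 9.31 and 9.23 FPKM in the knockdown libraries, against 20.8 and 21.2 FPKM in the controls. EPCAM, an epithelial adhesion molecule gene, was at 147 and 141 FPKM in the knockdown libraries, against 312 and 312 FPKM in the controls. With 4 libraries in 2 groups, such likeness amounts to a similar difference between the groups.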

How the data were processed

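For 2 ARID1A knockdown and 2 control samples of HCT116, libraries were prepared from total RNA using NEBNext Ultra reagents, per the labels' protocols. For each library the authors deposited FPKM values, per the file headers. GRCh38, STAR and Cufflinks are named in the submitters' processing notes, while no source used here gives versions, annotation or strand setting. Of 60811 rows, 45 second copies of pseudoautosomal genes were dropped, and 2347 values under 1e-09 were set to 0; 1 was added to each start. FPKM values are not counts, so limma 3.58.1 (R 4.3.3; eBayes with a trend) was run on log2(FPKM + 1) for genes with a mean of at least 1 FPKM. The fit was also run on simulated data with far fewer changed genes than were called here. That run does not measure false calls in these data. Fragment totals, about 75750000 and 74000000 (knockdown) and 68750000 and 71000000 (control), were estimated from 3516 single-transcript genes, where 83.4% to 86.3% of low values were whole fragments within 0.1. The members and lists were chosen with earlier results of these data known. Beside the members, ARID1A, TGFB3, SMAD6, SKI and SKIL, genes were named by absolute log2 change, up to 5 called per list with at least 2 FPKM in the higher group; 1 gene of the response list is counted with it but not reported here. Gene positions come from the files, promoters from RefSeq (all 10 members matched) and the coding run from GENCODE release 29. Alternatives were the pseudocount, the filter, the scaling, the variance prior, a replicate block and each library left out.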

Additional observations from a re-analysis of the deposited data

How the results depend on the processing

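The 4 members that fell were also 4 under a pseudocount of 0.1, no filter, a filter of at least 5 FPKM, median-ratio scaling, a variance prior without a trend and the replicate block. With any 1 library left out they numbered from 3 to 5, and 0 members rose in each of these fits. TGFBR1, TGFBR2 and SMAD4 passed in every fit, and the log2 change of SMAD3 ranged from -0.040 (without knockdown replicate 2) to 0.079 with 1 library left out; the cause was not tested. Over all tested genes, 5046 were called (6592 at an unadjusted p under 0.05). With no filter on low values 2786 were called, and from 1900 to 3259 with 1 library left out; more genes tested or fewer libraries are part of how these fits were made. Of the pathway list genes 21 fell and 9 rose, with ranges of 13 to 16 and 6 to 13 when 1 library was left out. The change of ARID1A ranged from -0.78 to -0.60 with 1 library left out, and its adjusted p from 0.0130 to 0.0439. With the replicate number as a block, 4126 genes were called, 3967 of them also without it, and none of the members changed its call. Same-numbered libraries did not deviate together (correlation over genes -0.0099). This correlation cannot show whether they share a culture or a batch, which the labels do not say. TGFB2, under 1 FPKM in every library, was too low to test with either filter, and TGFBR3 too low with a filter of at least 5 FPKM.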
